A study of Mus musculus with 3 samples.

Results

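The transcripts of 9 genes of the AP-1 and BATF families were measured: the JUN group (Jun, Junb and Jund), the FOS group (Fos, Fosb, Fosl1 and Fosl2) and the BATF group (Batf and Batf3). They were taken by gene symbol from a table of 44788 gene rows, and all 9 symbols were present. The cells were T lymphocytes of the spleen from female Balb/c mice of 6 to 8 weeks, isolated with beads against CD90.2 (Thy1) and held in RPMI medium with 2% fetal bovine serum. They were treated for 10 h with LZ-8, a small immune-modulating protein from the medicinal mushroom Ganoderma lucidum. The study gives 1 group of 3 replicate libraries and no untreated cells are analysed here, so each value is a level after treatment and says nothing of a change. Nothing in the labels ties the replicates to separate animals or cultures, so p-values and SDs concern no more than the spread among these samples, possibly a technical one. In bulk RNA, fewer cells that express a gene and less of its RNA per cell cannot be told apart.

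AP-1 is a dimer of basic leucine zipper (bZIP) proteins that binds a short palindromic DNA site. JUN proteins can pair with each other or with FOS proteins, whereas FOS proteins need a partner. BATF proteins lack a transactivation domain of their own, pair with JUN proteins, and bind composite sites together with IRF4 or IRF8. In T cells AP-1 acts with NFAT downstream of the antigen receptor, and BATF with JUNB is required for Th17 differentiation. Fos and Jun are classical immediate early genes, whose transcripts rise and decay quickly after a stimulus.

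The JUN group held most of the AP-1 transcript pool in every library, and Junb, Jund and Batf were its most abundant members per length. Levels in CPM (counts scaled to a common library total) divided by the annotated exon length in kilobases averaged 72.3 ± 8.50 for Junb, 66.3 ± 13.8 for Jund and 35.6 ± 11.8 for Batf (SD, n = 3). The founding members were lower, with Jun at 11.5 ± 2.14 and Fos at 5.76 ± 0.577 CPM per kilobase. Batf3 was barely detected. By mean level, 7 of the 9 genes reached 10 CPM and 8 reached 1 CPM. In the whole table, 20.6% of rows reached 10 CPM, and the median over 19744 genes with a count and an annotated length was 2.61 CPM per kilobase.

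The total count was 13239482, 15007652 and 15683820 in replicates 1, 2 and 3, and 3 counts, taken as the detection floor, correspond to 0.236, 0.198 and 0.186 CPM. Floors cover counting error only. The labelled cell type was checked on a short marker list. All 8 T cell genes averaged 10 CPM or more and summed to 3034 to 3245 CPM per library, while B cell markers came to at most 0.372% of that sum, macrophage markers to 0.207%, dendritic cell markers to 0.411%, NK cell markers to 0.396% and neutrophil markers to 0.0290%. Most of the macrophage sum was Cd68 (5.57 ± 0.265 CPM) and most of the NK sum was Eomes (9.06 ± 1.73 CPM, SD, n = 3). Csf1r, Ncr1 and Klra8 had no count, so these sums do not measure the share of such cells. Rn18s-rs5, which stands for 18S ribosomal RNA, took 5.83%, 2.37% and 0.992% of counts in replicates 1, 2 and 3, so the libraries differed in a way the labels do not name.

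Because AP-1 genes are known targets of AP-1 and CREB type factors, the sequences before the starts of the genes were searched for motifs of that kind. The promoter table of RefSeq (GRCm38.p6) matched 8 of the 9 members, all but Fosl1. The 250 bases before the start given in that table were searched on both strands for TGANTCA (the AP-1 site), TGACNTCA (the site of CREB and ATF factors, or CRE), TGACG (its core, which TGACNTCA contains where N is G) and the CArG box of serum response factor. The windows of Jun, Junb, Fos and Batf hold a match outside the annotated bounds of the gene itself. They are printed 5′ to 3′ along the gene with the match in capitals, up to the first annotated base of that gene. Overlap of the windows with transcripts of other genes was not checked.
Jun (chr4:95052223-95052472, minus strand): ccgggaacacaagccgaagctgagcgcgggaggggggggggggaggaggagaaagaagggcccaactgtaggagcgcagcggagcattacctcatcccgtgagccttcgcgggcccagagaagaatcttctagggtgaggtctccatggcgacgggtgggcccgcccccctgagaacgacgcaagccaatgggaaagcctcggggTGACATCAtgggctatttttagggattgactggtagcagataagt
Junb (chr8:84978749-84978998, minus strand): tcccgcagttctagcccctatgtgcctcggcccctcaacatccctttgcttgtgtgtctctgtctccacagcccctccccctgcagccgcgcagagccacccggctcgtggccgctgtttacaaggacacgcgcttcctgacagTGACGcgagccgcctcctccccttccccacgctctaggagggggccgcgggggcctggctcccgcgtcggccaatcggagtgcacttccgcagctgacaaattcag
Fos (chr12:85473640-85473889, plus strand): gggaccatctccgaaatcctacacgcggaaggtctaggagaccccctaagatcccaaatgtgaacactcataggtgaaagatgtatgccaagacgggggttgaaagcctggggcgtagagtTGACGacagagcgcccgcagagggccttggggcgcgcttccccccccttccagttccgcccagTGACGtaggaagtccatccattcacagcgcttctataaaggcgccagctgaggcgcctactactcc
Batf (chr12:85686470-85686668, plus strand): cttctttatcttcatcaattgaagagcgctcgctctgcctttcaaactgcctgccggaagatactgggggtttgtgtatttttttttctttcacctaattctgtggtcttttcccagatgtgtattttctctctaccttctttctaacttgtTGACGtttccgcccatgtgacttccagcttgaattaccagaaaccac
The Jun window holds TGACATCA, a form of TGACNTCA with A for N and so not the CRE, 45 to 38 bases before the start. The Junb window holds TGACG from 106 to 102, the Batf window from 98 to 94, and the Fos window at 129 to 125 and at 66 to 62 bases before the start. TGACG was also found in the window of Fosb, from 60 to 56 bases before the start in the table, but a longer RefSeq model of Fosb begins upstream, at 19310118, so this match lies inside that transcript and is not printed. Counted by the starts in the table, TGACG was in 4 of 8 members, with Fosb among them, beside 17.8% of 32851 promoter windows of the same length. The windows were not matched for GC content, which was 46.4% (Batf) to 76% (Batf3) in the members. Each member had 1 window, while every distinct window of a gene was kept for the background, and the difference was not tested. TGACNTCA was in 1 of 8 members and in 7.49% of all windows. TGANTCA and the CArG box were in none of the 8 and in 6.75% and 1.47% of all windows. Sites more than 250 bases before the start, such as a more distant serum response element, could not be found by this search. The absence therefore holds for the windows and not for the whole promoters. A match describes the letters only, since no binding was measured here.

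Among the JUN genes, Junb, a JUN protein that works with BATF in helper T cells, had 2404, 2331 and 2525 counts, or 189, 154 and 156 CPM in replicates 1, 2 and 3. Replicate 1 was the high library, and the other 2 lay close together. The gene lies on chromosome 8 from 84974484 to 84978718 (bounds of the GENCODE annotation, GRCm38). Jund, a JUN protein found in many resting cells, had 135, 108 and 89.0 CPM, again highest in replicate 1. It lies on the same chromosome from 70698949 to 70700616. Jun, the founding member, had 44.6, 33.2 and 32.4 CPM, and lies on chromosome 4 from 95049034 to 95052222. Here too replicate 1 stood above the other 2. Within the JUN group, Junb made up 48.4 ± 2.89%, Jund 43.9 ± 2.92% and Jun 7.66 ± 0.286% of the summed level per kilobase (SD, n = 3).

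The FOS genes were led by the FOS-related antigens and not by Fos itself. Fosl2 (Fra-2), a factor with a described role in restraining part of the Th17 programme, had 91.3, 100 and 101 CPM, an even level across the libraries. Fosl1 (Fra-1) had 29.5, 28.0 and 17.96 CPM, with replicate 3 the low library. Per kilobase, the pair made up 77.1 ± 4.27% of the FOS group (SD, n = 3). Fos had 164, 192 and 244 counts, or 12.9, 12.7 and 15.1 CPM, and Fosb 57, 75 and 104 counts, or 4.48, 4.95 and 6.44 CPM. Both had their highest level in replicate 3. Fosl2 lies on chromosome 5 from 32135801 to 32157842, Fosl1 on chromosome 19 from 5447547 to 5455946, Fos on chromosome 12 from 85473890 to 85477273, and Fosb on chromosome 7 from 19302696 to 19310051.

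Of the BATF genes, Batf was abundant and Batf3 was near the floor. Batf had 870, 694 and 580 counts, or 68.3, 45.8 and 35.9 CPM, with replicate 1 high and replicate 3 low. It lies on chromosome 12 from 85686669 to 85709087, on the chromosome that also carries Fos. Batf3, which is needed for the cross-presenting type of dendritic cell, had 0, 1 and 4 counts. The first 2 are under the floor, the 0 allows up to 0.236 CPM, and the 4 counts of replicate 3 are at 0.248 CPM. Of the dendritic cell markers, Clec9a and Siglech had no count in any library, Flt3 had 2, 4 and 3 counts and Xcr1 had 13, 14 and 14, while Zbtb46, at 9.90 ± 0.888 CPM (SD, n = 3), made up most of the sum of that list. Batf3 lies on chromosome 1 from 191097847 to 191108945.

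**Figure D1:**
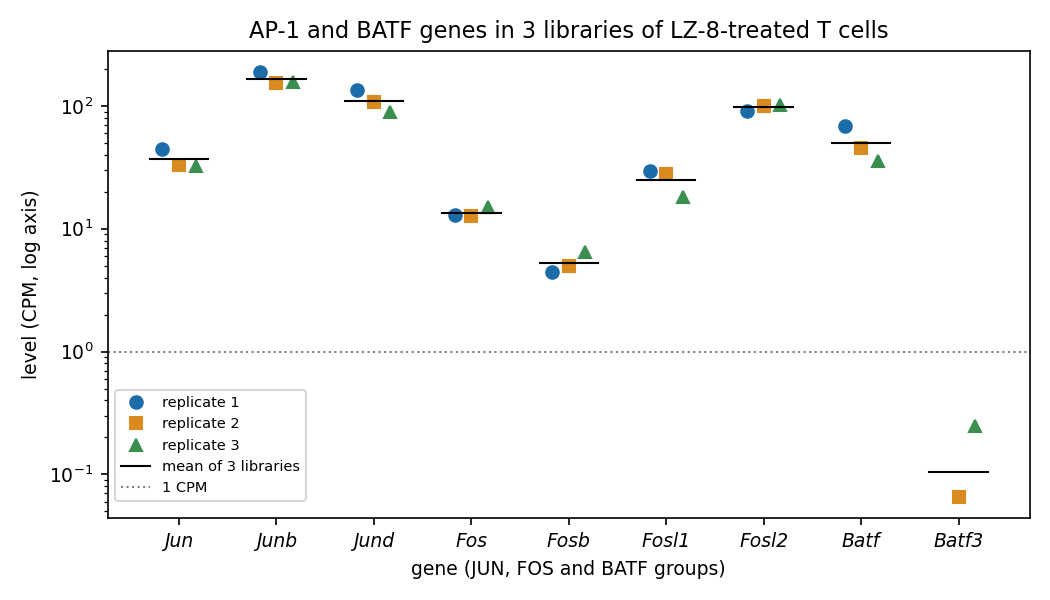
Level of each gene in CPM (log axis) in replicates 1, 2 and 3 (points), with the mean of the 3 libraries as a black line and 1 CPM as a dotted line. Junb is the highest at 154 to 189 CPM, Fosb is at 4.48 to 6.44 CPM, and Batf3 is the only gene under 1 CPM (its replicate 1, at 0, is not drawn).

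In the order of mean level per kilobase, Junb was followed by Jund, Batf, Fosl1, Jun, Fosl2, Fos and Fosb. Neighbours were compared by their log2 ratio within each library and called separated where it kept its sign across libraries and exceeded its SD. Of 7 neighbouring pairs, 4 were separated. Jund was 1.90-fold above Batf (log2 ratio 0.93 ± 0.17), Batf 2.84-fold above Fosl1 (1.51 ± 0.25), Fosl2 1.75-fold above Fos (0.81 ± 0.12) and Fos 6.86-fold above Fosb (2.78 ± 0.15). Junb and Jund did not differ beyond their spread (0.14 ± 0.18), nor did Fosl1 and Jun (0.08 ± 0.30) or Jun and Fosl2 (0.18 ± 0.34). With 3 libraries a two-sided exact sign-flip test cannot give a p below 0.25, which is 0.35 after Benjamini-Hochberg adjustment over the 7 pairs, so none of the ratios can pass a threshold. Junb was 12.5-fold above Fos and 6.31-fold above Jun per kilobase, in the same direction in all 3 libraries.

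The length taken for a gene decides part of this order. Junb lay above Jund beyond the spread under every other length tried, with a log2 ratio of 0.49 ± 0.18 by the longest annotated transcript, 0.60 ± 0.18 with no length and a higher value still by RefSeq spans. Against the longest annotated transcript in place of all annotated exons, Fosl2 moved from the sixth place to the fourth, at 14.9 ± 0.842 CPM per kilobase, and Batf rose to 52.4 ± 17.4 (SD, n = 3). The RefSeq model of Jund starts upstream of the GENCODE model and spans 2878 bases instead of 1668. With RefSeq spans for the JUN genes alone, the log2 ratio of Jund to Batf was 0.14 ± 0.17, within its spread. With the longest transcript for Batf and the other genes as well, it turned to -0.42 ± 0.17, which puts Batf above Jund. The annotation used for counting was not given in these sources, so the order of Jund and Batf is uncertain.

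As a share of the summed level per kilobase of the 9 genes, the JUN group made up 69.2%, 69.3% and 71.5% in replicates 1, 2 and 3, a mean of 70.0 ± 1.29% (SD, n = 3). The FOS group made up 11.8%, 14.8% and 14.6%, a mean of 13.7 ± 1.67%, and the BATF group 19.0%, 15.9% and 14.0%, a mean of 16.3 ± 2.54%. The JUN share was far above the others in each library. The FOS and BATF shares overlapped between libraries and changed places in replicate 3. With no division by length the FOS share was 28.3% and the BATF share 9.76%, since Fosl2 has the longest exons of the family (9680 bases) and Batf the shortest (1406 bases). The summed level of the 9 genes was 256, 205 and 184 CPM per kilobase, highest in replicate 1.

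**Figure D2:**
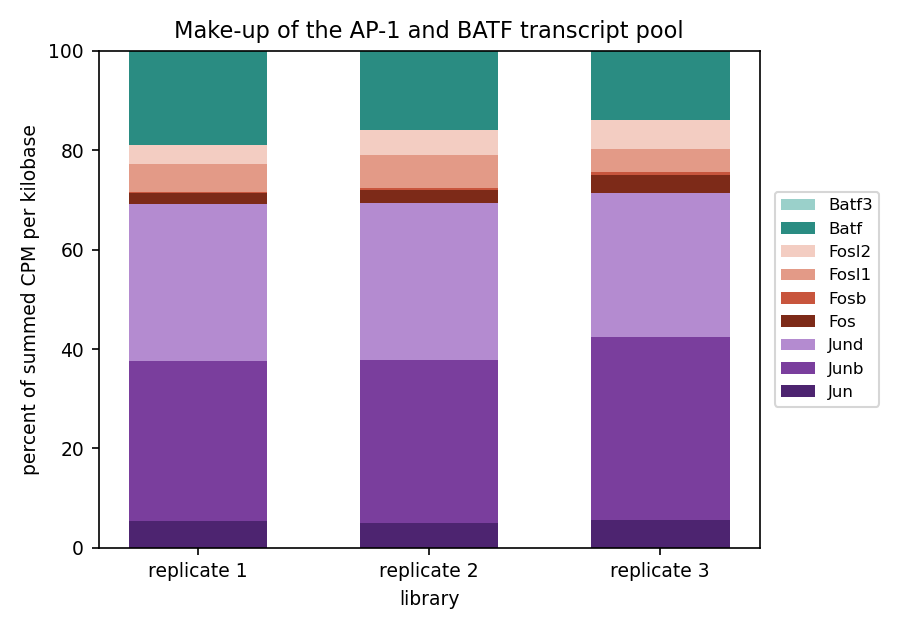
Share of each gene in the summed CPM per kilobase of the 9 genes, stacked to 100 percent for replicates 1, 2 and 3 (purple, JUN group; red, FOS group; green, BATF group). The JUN group takes 69.2% to 71.5% of each bar, and the Batf segment is 19.0% in replicate 1 and 13.9% in replicate 3.

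Most members differed between the libraries by more than counting noise. In a chi-square test of the 3 counts over 15392 genes with Benjamini-Hochberg adjustment, which compares libraries and not conditions, 6 of the 8 members tested differed, beside 42.8% of all genes tested. Of these, 3 differed by 1.5-fold or more, beside 13.8% of genes tested. Batf had the widest range, 1.90-fold (adjusted p = 1.73e-33 in the chi-square test), followed by Fosl1 at 1.64-fold (adjusted p = 3.11e-10) and Jund at 1.52-fold (adjusted p = 2.44e-29). Jun ranged over 1.38-fold, Junb over 1.23-fold and Fosl2 over 1.11-fold. The adjusted p of Fosl2 was 0.0364. With plain column totals Fosb passed the chi-square test at 1.54-fold and Jund ranged over 1.42-fold. Fos ranged over 1.19-fold (adjusted p = 0.211) and Fosb over 1.44-fold (adjusted p = 0.107), neither beyond the threshold of the chi-square test. Batf3 had too few counts to be tested.

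The members that differed were highest in replicate 1, with the exception of Fosl2. Batf, Jun, Junb, Jund and Fosl1 were highest in replicate 1, where 17.9% of all genes tested were called with that direction, and Fosl2 was highest in replicate 3, beside 19.1%. The exception rests on the weakest call, since Fosl2 did not pass the chi-square test with DESeq2 size factors (adjusted p = 0.057), with no filter on low counts (adjusted p = 0.053) or with length and GC trends taken out (adjusted p = 0.168). All genes of the JUN group thus had their peak in the library with the largest 18S share, and the lowest level of Batf, Jun, Jund and Fosl1 was in replicate 3, which had the smallest. The part of ribosomal RNA in these differences was not tested. Among the 7 members of at least 10 CPM the median coefficient of variation was 18.6%, and 6 of them were above the median of 8.67% over 9204 genes at that level.

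These calls rest in part on single libraries. Without replicate 1, the calls of Jun, Junb and Fosl2 were lost and 3 members differed, beside 24.4% of genes tested, with Fosl1 the only one at 1.5-fold or more, beside 5.34%. Without replicate 3, the calls of Fosl1 and Fosl2 were lost, and the 4 left, beside 22.8% of genes tested, all ranged under 1.5-fold, beside 4.72% at or above it, the widest being Batf at 1.49-fold. The libraries also had trends with transcript length and GC content across coding genes, fitted higher in replicate 1 for short GC-rich transcripts. The fitted trend for Jund, at 1668 bases and 67.1% GC, was 0.20 in replicate 1 and -0.21 in replicate 3 (log2), and for Batf, at 955 bases, 0.20 and -0.19. With these trends taken out, 5 members still differed (beside 36.8% of genes tested), without Fosl2, and none reached 1.5-fold (beside 12.1%). Batf then ranged over 1.46-fold, Fosl1 over 1.498-fold and Jund over 1.14-fold.

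**Figure D3:**
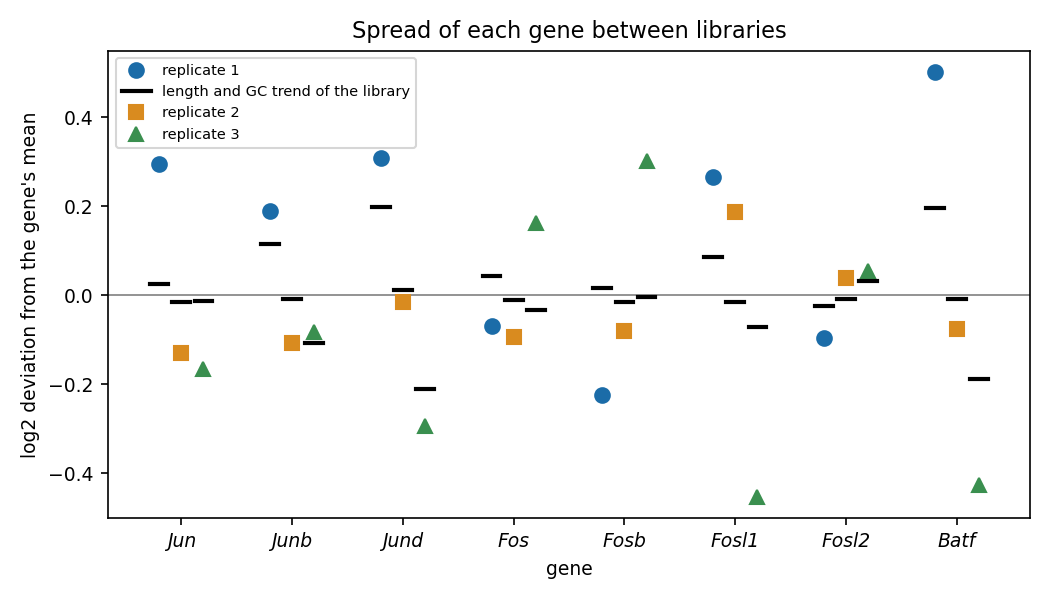
Log2 deviation of each gene from its own mean over the 3 libraries (points, by replicate), with the fitted trend of each library at that gene's transcript length and GC content as a black bar. Batf runs from 0.50 in replicate 1 to -0.43 in replicate 3, and its bars cover 0.20 to -0.19, while Fosb runs the other way, from -0.22 to 0.30, with bars near 0.

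Some of the counts may be shared with genes on the other strand, because no source used here gives the strand setting of the counting. Exons of Ccdc85b, on the opposite strand, cover 57.2% of the annotated exon bases of Fosl1. Ccdc85b had 183, 176 and 142 counts, lowest in replicate 3 like Fosl1. The level of Fosl1 is uncertain for that reason. The antisense gene Gm11175 covers 52.6% of the exon bases of Jund, and no counts were available for Gm11175. The level of Jund, and with it the JUN share, is uncertain in the same way. The oppositely oriented genes Prdx2 and Junos cover 7.52% of Junb and 7.28% of Jun. Junos had 6, 18 and 22 counts, lowest in the library where Jun was highest. Apart from these 4 genes, no annotated transcript of another gene held a stretch of 50 bases of a member, the other members included.

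The genes around AP-1 were described by lists chosen with earlier results of these data known. In the list of 25 bZIP relatives, 20 averaged 10 CPM or more and the median was 9.83 CPM per kilobase. Atf4, the factor of the integrated stress response, was at 240 ± 5.51, Nfe2l1, a regulator of proteasome genes, at 61.7 ± 2.17 and Mafg, a small MAF protein, at 42.0 ± 1.74 CPM per kilobase (SD, n = 3). Nfe2l3 had no count. Bach2, a repressor that competes for AP-1 sites in T cells, was at 32.2 ± 3.42 CPM per kilobase, close to Batf, and was highest in replicate 3 where Batf was lowest. It was named after its values were seen, as were Batf2 and Jdp2. Batf2, the third BATF gene, had 0, 4 and 5 counts, and Jdp2, a bZIP repressor, had 5.81 ± 0.979 CPM. In the chi-square test 15 of the 21 relatives tested differed between libraries, beside 42.8% of all genes tested. Of the 15, 6 were highest in replicate 1 and 9 in replicate 3, beside 17.9% and 19.1% of all genes tested.

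Upstream of AP-1, 20 of 22 kinases, adaptors and serum response genes averaged 10 CPM or more, with a median of 15.6 CPM per kilobase. Map2k3, a kinase of the p38 pathway, was at 75.2 ± 2.94, Srf, which drives Fos through the serum response element, at 42.7 ± 2.35, and Map2k7, a kinase of JNK, at 41.0 ± 1.51 CPM per kilobase. Mapk10, the neuronal JNK gene, had 0, 1 and 0 counts. The JNK genes Mapk8 and Mapk9, named after their values were seen, were at 2.75 ± 0.379 and 6.95 ± 0.316 CPM per kilobase (SD, n = 3). Of 21 genes tested 8 differed between libraries, beside 42.8% of all genes tested, and none by 1.5-fold, beside 13.8%.

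All 12 genes listed as partners of AP-1 on composite sites averaged 10 CPM or more. Whether each of them shares sites with AP-1 was not tested. Irf4, the partner of BATF, had 2186, 2431 and 2609 CPM, and was the highest gene of the list at 491 ± 43.3 CPM per kilobase. It was lowest in replicate 1, the library where Batf was highest. Ets1 was at 70.9 ± 1.24, Nfatc1, a classical partner of AP-1 on cytokine promoters, at 52.0 ± 3.15 and Runx1, the lowest of the list, at 1.87 ± 0.259 CPM per kilobase. In the chi-square test 7 of the 12 differed between libraries, beside 42.8% of all genes tested. None of the 7 was highest in replicate 1, beside 17.9% of all genes tested, and none differed by 1.5-fold, beside 13.8%.

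Among 14 genes that limit AP-1 protein, RNA or signalling, 11 averaged 10 CPM or more. Dusp2, a phosphatase of MAP kinases, had 289, 223 and 150 CPM, and its 1.93-fold range made it the only one of the list to differ by 1.5-fold (adjusted p = 1.61e-139 in the chi-square test). Like Batf it was high in replicate 1 and low in replicate 3. The RNA decay factors Zfp36l1 and Zfp36l2 were at 97.1 ± 7.24 and 54.9 ± 1.18 CPM per kilobase, and Nedd4l, a ubiquitin ligase, was the lowest at 0.162 ± 0.0331. In this list 9 of 14 differed between libraries, beside 42.8% of all genes tested, and 1 by 1.5-fold, beside 13.8%.

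Genes with known AP-1 or BATF sites in T cells covered a wider range than the factors. Of 26 genes, 14 averaged 10 CPM or more, and the median was 5.45 CPM per kilobase. The chemokines Ccl4 and Ccl3 were at 182 ± 12.4 and 121 ± 21.9, and Il2ra, a chain of the interleukin-2 receptor, was at 145 ± 12.9 CPM per kilobase. Of 24 genes tested 10 differed between libraries, beside 42.8% of all genes tested. The only one to do so by 1.5-fold, beside 13.8% of all genes tested, was Tnf. It was named for that after its values were seen and had 86.2, 74.0 and 57.2 CPM.

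**Figure D4:**
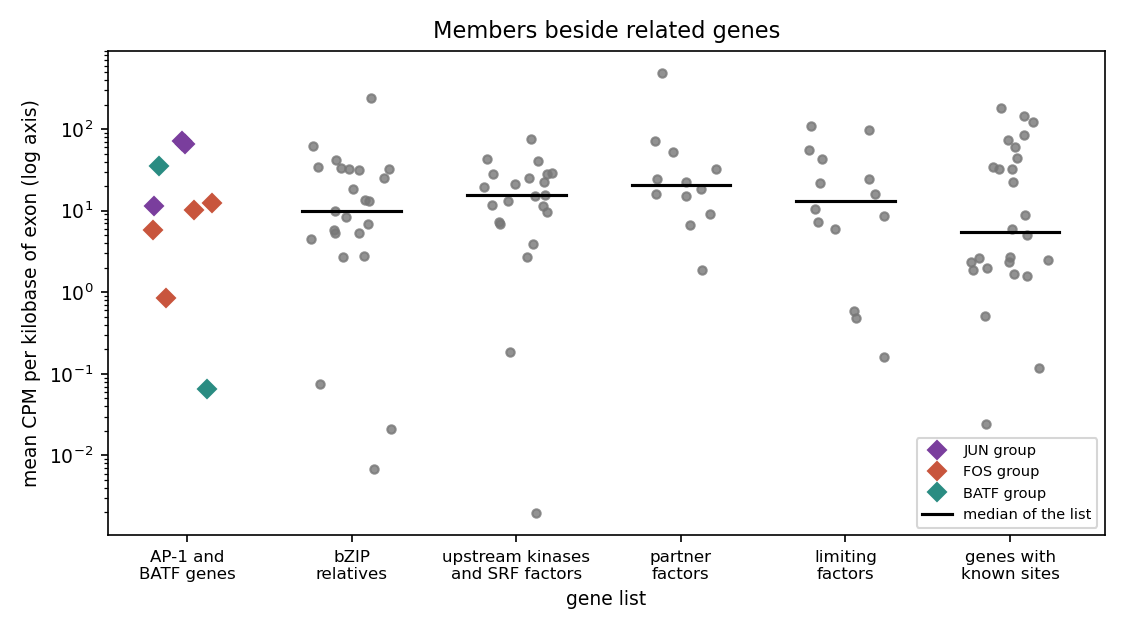
Mean CPM per kilobase of exon (log axis) of the 9 AP-1 and BATF genes (diamonds, coloured by group) and of each related list (grey points, 1 per gene; genes without a count are not drawn), with the median of each list as a black line. Medians run from 5.45 to 20.6 CPM per kilobase, and Junb, Jund and Batf lie above all 5 of them.

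Across the 99 genes of the related lists, the one whose 3 values per kilobase lay nearest was found for each member, by the root mean square difference of log2 levels over 3 libraries. Fosl2 was nearest to Map3k1, an upstream kinase, at 0.05, and Fos to Atf6 at 0.09. Junb was nearest to Ets1 at 0.12, Jun and Fosl1 both to Mapk3 (ERK1) at 0.16 and 0.27, Batf to Atf5 at 0.19 and Jund to Nfe2l1 at 0.22. Fosb had no close neighbour, the nearest being Nedd4 at 0.56. Atf5 shared the direction of Batf, with 38.9, 33.2 and 24.8 CPM per kilobase in replicates 1, 2 and 3. With 3 libraries this likeness is mainly one of level.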

How the data were processed

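The deposited file is a table of raw counts with a row per gene symbol and a column per replicate. The submitters' processing notes name the build mm10, and the labels name Trizol extraction and an Ion Proton RNA-Seq kit. No source used here gives the aligner, counting tool, annotation or strand setting. The members and gene lists were chosen with earlier results of these data known.

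CPM were computed on TMM-scaled library sizes in edgeR 4.0.16 (R 4.3.3). Exon lengths, GC content and overlaps came from GENCODE M21 (GRCm38), which matched 30997 symbols directly and 1206 through synonyms. Library differences were tested by a chi-square test on counts (expected count at least 5 per library), called at a Benjamini-Hochberg adjusted p of 0.05. The step was run on simulated counts with counting noise only. Of 50 genes changed in 1 library, 46% were called at 1.25-fold and, of another 50, 66% at 1.5-fold. A member that was not called may therefore still differ by that much. Spread beyond counting noise was not simulated. Cop1 and Adgre1 were found under older symbols. Named genes were all members, the 3 highest and the lowest gene per kilobase of each related list, related genes with a 2-fold difference (none), and the nearest gene to each member. One gene this rule names is not reported here.

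Alternatives were DESeq2 1.42.0 size factors, other totals, lengths, filters and thresholds, each replicate left out, and, added after seeing the data, RefSeq spans for the JUN genes (with the longest transcript or all exons for the rest) and removal of length and GC trends (splines over coding genes of at least 5 CPM).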

Additional observations from a re-analysis of the deposited data

How the results depend on the processing

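The counts of members at 10 CPM (7) and 1 CPM (8) were the same under every scaling and without each replicate. None of the 54 recomputed member levels moved by more than its SD. A mean with 1 replicate left out cannot move that far, so for those levels this says nothing of robustness. The other recomputed levels only rescaled whole libraries. The choice of length moved the group shares. The JUN share was 65.8% with the longest transcript, 61.9% with no length and 61.4% with RefSeq spans for the JUN genes and the longest transcript for the rest (mixed lengths). The FOS share was 28.3% with no length and 16.1% with mixed lengths, and the BATF share was 19.9% with the longest transcript, 9.76% with no length and 22.5% with mixed lengths. Leaving out 1 replicate gave 69.2% to 70.4%, 13.2% to 14.7% and 14.9% to 17.5% for JUN, FOS and BATF.

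The number of members differing between libraries was 5 to 7 under the other scalings, filters and thresholds, beside 27.6% to 50.4% of genes tested. With 1 replicate left out, which reduces the number of libraries compared, it was 3 to 6, beside 22.8% to 41.6%. The number differing by 1.5-fold or more was 0 with length and GC trends removed, beside 12.1% of genes tested. With 1 replicate left out that number was 0 to 3, beside 4.72% to 13.2%. With plain column totals it was 3 as well, beside 14.5%, with Fosb in place of Jund. Of 7 neighbouring pairs, 7 were separated with no length, and 4 to 5 with 1 replicate left out. Jund to Batf reversed to -0.42 (log2) with mixed lengths and was 0.14 with RefSeq spans alone. Fosl1 to Jun, not separated, reversed to -0.57 with no length and ranged from -0.073 to 0.23 with 1 replicate left out, below 0 without replicate 2. Jun to Fosl2, not separated, reversed to -0.39 with the longest transcript, -1.42 with no length, -0.39 with mixed lengths, and ranged from -0.017 to 0.29 with 1 replicate left out, below 0 without replicate 1. Apart from the lengths themselves, the cause was not tested. No paired analysis was possible because there is 1 group. Depth limits Batf3 and Fosb most.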
